A study of Mus musculus with 32 samples.

Results

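Markers of the hepatic stellate cell were followed in mouse liver. They are 10 genes chosen by symbol, Acta2, Tagln, Des, Vim, Lrat, Pdgfra, Pdgfrb, Reln, Lhx2 and Rgs5, out of 41585 gene entries in each of the count tables for females and males. All 10 were found in both tables and passed the filter on low counts. Stellate cells lie between the sinusoidal endothelium and the hepatocytes and store vitamin A as retinyl esters. After injury they can become myofibroblasts, which contract, lose their retinyl ester droplets and lay down collagen matrix, and platelet-derived growth factor (PDGF) is among the signals that make them divide. Lrat and Lhx2 are known as genes of the resting cell, and Acta2, Tagln and Vim are raised in the activated cell. Des, Reln, both PDGF receptors and Rgs5 are used to find the cell in either state.

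The study asked what loss of Cyp2b enzymes does in diet-induced nonalcoholic steatohepatitis. Bulk RNA-seq was run on livers of mice of both sexes, of the strain C57BL/6 by the labels and C57Bl/6J by the study's methods, either wild type (WT) or lacking Cyp2b9, Cyp2b10 and Cyp2b13 (Cyp2b-null, made with CRISPR/Cas9). Mice were 10 weeks old at the start and were then kept for 8 weeks on normal chow (ND), with fat at 6.2%, or on CDAHFD, a choline-deficient, L-amino acid-defined diet rich in fat (62%) and poor in methionine (0.1%), which gave 8 groups of 4 libraries: ND-fed WT, CDAHFD-fed WT, ND-fed Cyp2b-null and CDAHFD-fed Cyp2b-null mice of each sex. The Cyp2b deletion is in every cell of the mouse, so it was not made in stellate cells alone. WT mice were bought, and no litter shared with the Cyp2b-null mice is stated. No label ties a library to its own animal, so p-values measure the spread between these libraries.

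Library totals ran from 2906411 to 10166959 counts on genes, and 3 counts, taken as the floor, came to between 0.246 and 1.17 CPM (a gene's counts scaled to a common library size with TMM factors), for counting error only. Cyp2b9, one of the deleted genes, had at least 683 counts in every WT female library and at most 8 in the Cyp2b-null females. In males Cyp2b9 told the genotypes apart on CDAHFD (at least 118 against at most 7 counts) and Cyp2b10 on ND (at least 33 against at most 9), while Cyp2b9 on ND and Cyp2b10 on CDAHFD were too low in WT males to do so. The tissue label was checked with the hepatocyte genes Alb, Ttr and Apoa1: Alb alone had at least 300920 counts in each library. The heat maps of the study omit a CDAHFD-fed Cyp2b-null library of each sex, replicate 3 of the females and replicate 4 of the males, and both were kept here. The female one stood apart from the others of its group (mean chi-square per gene 23.3 to 29.7 against each of them, and 3.34 to 8.96 among them). Within that group it was highest for Acta2, Tagln, Des and Vim and lowest for Lrat, Pdgfra, Pdgfrb, Reln and Rgs5. For the male one these values were 11.6 to 65.5, and 14.7 to 37.98 among the others.

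The effect of diet is given first. On CDAHFD, 5 of the 10 markers rose in WT females, against 13.9% of 13226 genes called higher in that comparison. In Cyp2b-null females 6 rose (16.9% of genes), in WT males 6 (18.0% of 13460 genes) and in Cyp2b-null males 8 (20.3%). None of the 10 was called lower, where 10.2%, 13.9%, 15.0% and 17.1% of genes were in the same 4 comparisons. Acta2, Tagln, Vim, Pdgfra and Pdgfrb rose in all 4 comparisons, and Lrat and Lhx2 were called in none. Without CDAHFD-fed Cyp2b-null female replicate 3 the count in Cyp2b-null females was 5, and without CDAHFD-fed Cyp2b-null male replicate 4 the count in Cyp2b-null males was 7. A call means an adjusted p-value under 0.05 over all genes tested in that sex (edgeR quasi-likelihood test, Benjamini-Hochberg). The median log2 fold change over the 10 markers was 0.62 in WT females, 0.82 in Cyp2b-null females, 0.90 in WT males and 1.38 in Cyp2b-null males, where the median over all genes was −0.0021, 0.027, −0.023 and −0.0083. In whole liver a change in the number of stellate cells and a change in the RNA per cell cannot be told apart.

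The 5 markers called in WT females had 4 CDAHFD-fed libraries each above all 4 ND-fed libraries, as did Des, which was not called, so that 6 markers did not overlap where 14.6% of genes were higher without overlap. That count was 5 in Cyp2b-null females (16.3% of genes), 5 in WT males (15.9%) and 8 in Cyp2b-null males (19.8%). Scaling by library size only, without TMM factors, moved the median log2 fold change of all genes up, to 0.32 in WT females, 0.28 in Cyp2b-null females, 0.37 in WT males and 0.36 in Cyp2b-null males. The split of all calls then went from 1838 higher and 1355 lower to 3898 and 492 in WT females, and from 2426 and 2017 to 5102 and 583 in WT males. In Cyp2b-null mice it went from 2240 and 1834 to 4002 and 669 in females, and from 2737 and 2301 to 5147 and 821 in males.

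**Figure D1:**
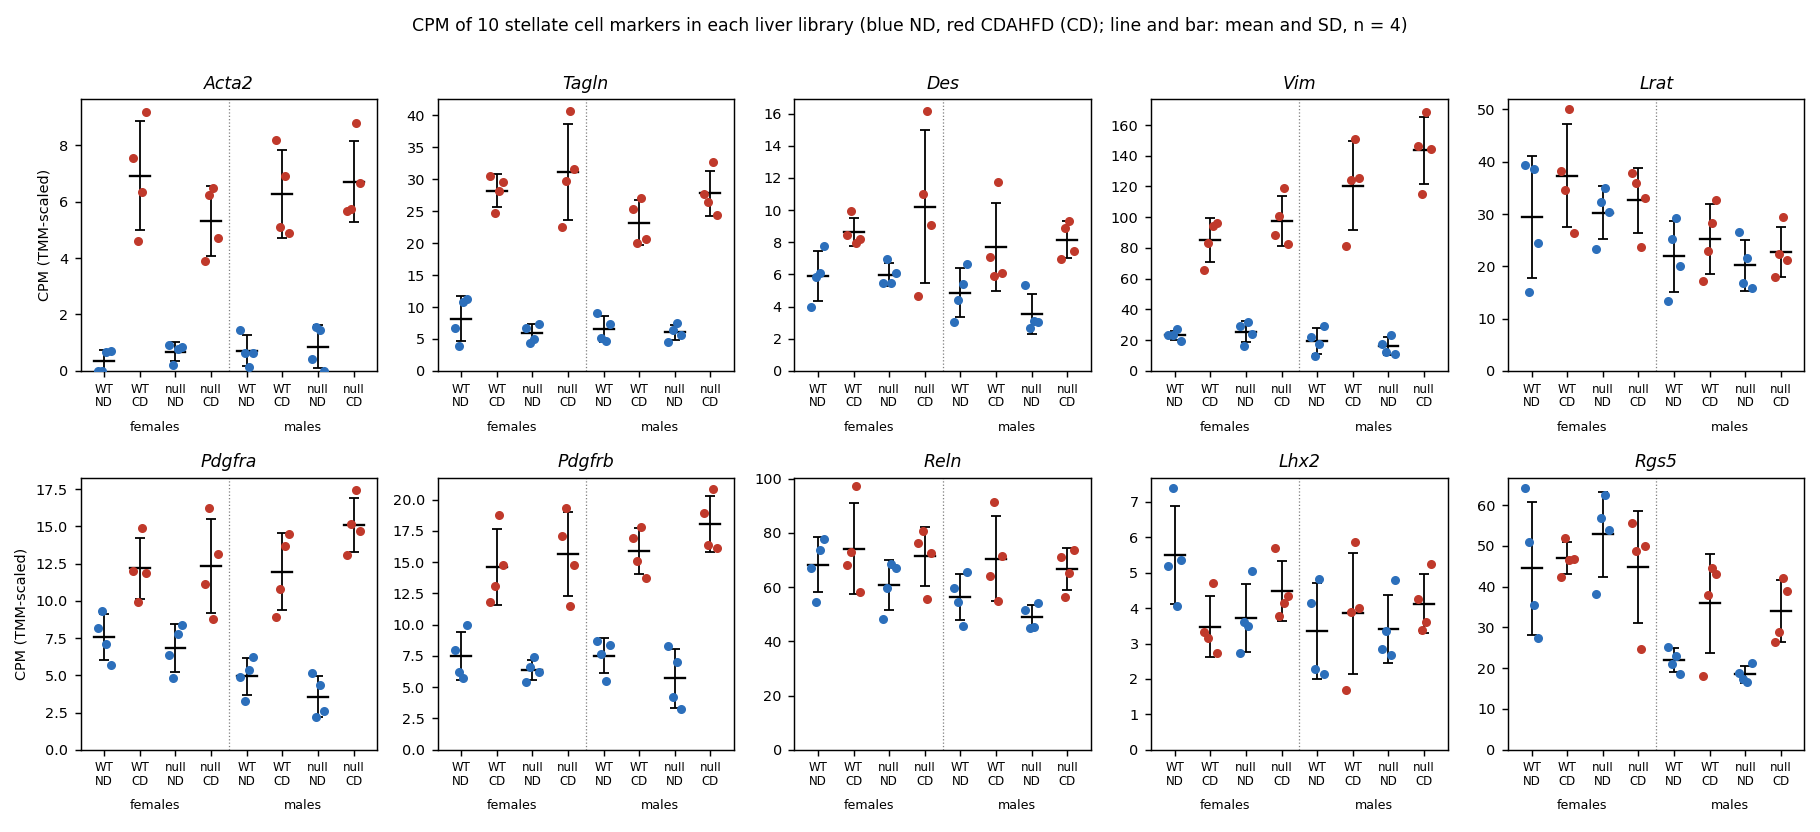
CPM of each marker (y axis, each panel from 0) in every library of the 8 groups (x axis; null, Cyp2b-null; CD, CDAHFD; females left and males right of the dotted line), with the group mean and SD (n = 4). For Acta2, Tagln and Vim all CDAHFD-fed libraries lie above all ND-fed libraries of the same sex, while the diets overlap for Lrat and Lhx2.

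Acta2 (chromosome 19, 34240336 to 34255585, minus strand, GRCm38.p6) encodes smooth muscle alpha-actin, the actin of myofibroblast stress fibers and the usual sign of an activated stellate cell. On ND it was at the edge of detection, with 0, 0, 2 and 4 counts in the WT female libraries, 1, 2, 3 and 5 in Cyp2b-null females, 1, 3, 4 and 8 in WT males and 0, 4, 7 and 7 in Cyp2b-null males. On CDAHFD it reached 4.59, 6.33, 7.56 and 9.16 CPM in WT females and 3.88, 4.71, 6.23 and 6.47 CPM in Cyp2b-null females. In males the CDAHFD-fed libraries held 4.88, 5.10, 6.89 and 8.19 CPM in WT and 5.68, 5.73, 6.65 and 8.78 CPM in Cyp2b-null mice. The lowest CDAHFD-fed library of either sex, 3.88 CPM, was above the highest ND-fed library, 1.56 CPM. The log2 fold change was 4.16 (SE 0.51, adjusted p = 4.15e-06) in WT females and 2.98 (SE 0.46, adjusted p = 5.67e-05) in Cyp2b-null females. It was 3.17 (SE 0.50, adjusted p = 4.42e-05) in WT males and 3.04 (SE 0.48, adjusted p = 4.04e-05) in Cyp2b-null males. Because the ND counts were so few, the ratio of summed counts is given with an exact interval for counting error: 19.4-fold (95% confidence interval 8.71 to 53.9; 141 against 6 counts) in WT females, 8.24-fold (4.45 to 16.9) in Cyp2b-null females, 9.46-fold (5.64 to 17.0) in WT males and 8.95-fold (5.54 to 15.4) in Cyp2b-null males. The wide intervals overlap one another.

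Tagln (chromosome 9, 45929628 to 45936058, minus strand) encodes transgelin, an actin-binding protein of smooth muscle and myofibroblasts. Its ND-fed WT libraries held 3.88, 6.78, 10.8 and 11.2 CPM in females and 4.70, 5.19, 7.28 and 9.03 CPM in males. With CDAHFD these became 24.7, 28.2, 29.6 and 30.5 CPM in WT females and 20.01, 20.6, 25.3 and 27 CPM in WT males. Every CDAHFD-fed library lay above all ND-fed libraries of either sex. In Cyp2b-null females Tagln lay between 4.39 and 7.40 CPM on ND and between 22.5 and 40.6 CPM on CDAHFD. In Cyp2b-null males these ranges were 4.58 to 7.43 and 24.4 to 32.7 CPM. The diet effect was 1.75 (SE 0.24, adjusted p = 1.53e-05) in WT females, 2.39 (SE 0.25, adjusted p = 5.30e-07) in Cyp2b-null females, 1.85 (SE 0.20, adjusted p = 4.46e-07) in WT males and 2.23 (SE 0.20, adjusted p = 3.11e-08) in Cyp2b-null males, all log2 fold changes. Both Acta2 and Tagln kept these calls under each of 6 other processing settings and with any 1 library of the groups compared left out. In the GENCODE vM21 annotation, 67.9% of the exon bases of Tagln are also exon of genes on the opposite strand (Gm48529 and Pcsk7). The strand setting of the counting is not given in the sources used here. How reads from these shared bases were counted is therefore not known.

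Acta2 is one of 6 actin genes with nearly the same protein, but no stretch of 100 bases of its transcripts occurs in a transcript of another gene in GENCODE vM21. Of its muscle paralogs, Acta1 had at most 4 counts in any library and 0 in 21 of 32, and Actg2 at most 3 counts and 0 in 17 of 32. Actc1 had at most 11 counts and 0 in 12 of 32. The cytoplasmic actins were higher, with 357 to 1346 CPM for Actb and 11.8 to 80.4 CPM for Actg1. Both were called higher in all 4 diet comparisons, and their part in the counts of Acta2 was not tested. Vascular smooth muscle also expresses Acta2 and Tagln, and its markers were looked at beside them. Of 8 such genes only Myh11 and Smtn had enough counts to be tested. Cnn1 was at 0 counts in 27 of 32 libraries and Myocd, the smooth muscle coactivator, in 31 of 32. The summed level of the 8 genes was 7.56 to 14.2 CPM on ND and 8.36 to 12.4 CPM on CDAHFD in females, which overlapped, and 4.57 to 9.73 against 9.47 to 15.9 CPM in males, where the ranges met only at their edges. Myh11, smooth muscle myosin, was not called in WT females (log2 fold change −0.22), Cyp2b-null females (0.35) or WT males (0.34) and rose in Cyp2b-null males (1.39, adjusted p = 0.0174). Smtn rose in WT males (0.78, adjusted p = 0.0320) and Cyp2b-null males (1.17, adjusted p = 0.00193). The part of smooth muscle in the rise of Acta2 and Tagln was not tested in either sex.

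Vim (chromosome 2, 13574311 to 13582826, plus strand) encodes vimentin, the intermediate filament protein of mesenchymal cells, which stellate cells, endothelial cells and leukocytes all hold. WT females had 19.7, 23.1, 23.3 and 27 CPM on ND and 65.4, 82.9, 94.6 and 96.5 CPM on CDAHFD. WT males had 9.57, 17.3, 21.9 and 29.5 CPM on ND and 81.2, 125, 125 and 151 CPM on CDAHFD. The lowest CDAHFD-fed library stood well above the highest ND-fed library in both sexes. In Cyp2b-null mice the 4 ND-fed female libraries held 16.4, 24.1, 29.3 and 31.9 CPM and the CDAHFD-fed ones 82.3, 88.5, 101 and 119 CPM. For Cyp2b-null males these were 10.9, 12.0, 17.3 and 23.5 CPM and 115, 144, 146 and 169 CPM. Vim had the lowest adjusted p-value of the 10 markers in each of the 4 diet comparisons: its log2 fold change was 1.88 (SE 0.19, adjusted p = 3.95e-07) in WT females, 1.96 (SE 0.19, adjusted p = 1.92e-07) in Cyp2b-null females, 2.64 (SE 0.26, adjusted p = 1.66e-07) in WT males and 3.16 (SE 0.27, adjusted p = 1.71e-08) in Cyp2b-null males.

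Des (chromosome 1, 75360292 to 75368579, plus strand) encodes desmin, the intermediate filament protein of muscle and of rodent stellate cells. Its level moved less. In WT females it went from 3.99, 5.83, 6.08 and 7.77 CPM on ND to 7.97, 8.19, 8.45 and 9.91 CPM on CDAHFD, without overlap, with a log2 fold change of 0.53 (SE 0.29, adjusted p = 0.203) that was not called. In WT males the libraries overlapped, 3.07, 4.38, 5.37 and 6.64 CPM against 5.92, 6.10, 7.07 and 11.7 CPM, with 0.69 (SE 0.28, adjusted p = 0.0620). Des rose in Cyp2b-null females, 0.77 (SE 0.28, adjusted p = 0.0414), although 1 CDAHFD-fed library (of 4.66, 9.05, 11.0 and 16.2 CPM) was below all ND-fed libraries (5.44, 5.45, 6.06 and 6.99 CPM). That call was lost in 6 of 8 fits that left out 1 library, each of the 4 ND-fed libraries and CDAHFD-fed replicates 2 and 3 among them (log2 fold change 0.48 to 0.98, adjusted p = 0.00494 to 0.178). In Cyp2b-null males Des rose by 1.15 (SE 0.28, adjusted p = 0.00282) on the log2 scale, with 2.68, 3.04, 3.10 and 5.34 CPM on ND and 6.94, 7.46, 8.90 and 9.35 CPM on CDAHFD, and kept the call in each such fit. In WT males Des was called in 2 of 8 such fits, without ND-fed replicate 4 or CDAHFD-fed replicate 2 (adjusted p = 0.0350 to 0.331 over the 8).

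The sequences before the start sites of Vim and Lrat are shown because Vim rose in all 4 diet comparisons and Lrat was called in none. Each is the 250 bases before the gene's start in RefSeq (GRCm38.p6), 5′ to 3′ on the gene's strand, for Vim chr2:13574061-13574310 (plus strand) and for Lrat chr3:82903975-82904224 (minus strand), with motif matches in capitals.
Vim: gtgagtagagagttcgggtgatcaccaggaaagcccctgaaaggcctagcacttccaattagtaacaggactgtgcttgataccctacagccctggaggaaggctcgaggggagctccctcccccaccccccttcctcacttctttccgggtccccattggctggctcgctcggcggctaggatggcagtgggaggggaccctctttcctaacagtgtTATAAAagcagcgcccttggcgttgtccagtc
Lrat: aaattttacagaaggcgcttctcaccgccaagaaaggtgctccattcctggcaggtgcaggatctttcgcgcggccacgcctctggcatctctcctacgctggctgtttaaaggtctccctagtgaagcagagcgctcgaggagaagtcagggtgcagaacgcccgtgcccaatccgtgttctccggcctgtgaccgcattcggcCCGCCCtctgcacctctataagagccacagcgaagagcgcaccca
The motifs searched, on both strands, were the TATA box in the form TATAAA, the GC box in the form GGGCGG and the AP-1 motif in the form TGANTCA. The CArG box, bound by serum response factor, was searched only in the strict form CCWWWWWWGG, with W for A or T. CArG boxes with a G or C among the inner bases were not searched. Each of the windows shown holds a single match, so that no motifs overlap in them. The Vim window holds TATAAA 32 bases before the start, a match that 12.4% of 32851 such windows hold on either strand. The Lrat window holds the GC box on its other strand, 45 bases before the start, and 32.7% of windows hold that motif. Of the 8 markers with a window, 4 held the GC box (Des, Lhx2, Lrat and Reln) and 1 held the TATA box. The strict form of the CArG box was in 0 of the 8 (1.47% of windows) and the AP-1 motif in 0 (6.75%). Tagln and Pdgfrb had no window. A marker without a match may hold the motif in another form or outside its window. Such a match is a run of letters and not a measured site.

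Pdgfra (chromosome 5, 75151322 to 75198206, plus strand) and Pdgfrb encode the PDGF receptors alpha and beta, tyrosine kinases through which PDGF drives the growth and migration of mesenchymal cells. Pdgfra stood at 5.70, 7.10, 8.18 and 9.32 CPM in ND-fed and 9.91, 11.9, 12.0 and 14.9 CPM in CDAHFD-fed WT females. WT males had 3.24, 4.88, 5.37 and 6.21 CPM on ND and 8.93, 10.8, 13.7 and 14.5 CPM on CDAHFD. The groups did not overlap, though in females the gap was narrow. Cyp2b-null females went from 4.79, 6.35, 7.78 and 8.41 to 8.81, 11.1, 13.1 and 16.2 CPM and Cyp2b-null males from 2.23, 2.61, 4.34 and 5.13 to 13.1, 14.7, 15.1 and 17.5 CPM. The log2 fold change of Pdgfra was 0.71 (SE 0.23, adjusted p = 0.0291) in WT females, 0.86 (SE 0.23, adjusted p = 0.00751) in Cyp2b-null females, 1.3 (SE 0.24, adjusted p = 0.000311) in WT males and 2.02 (SE 0.25, adjusted p = 1.74e-06) in Cyp2b-null males. The call in WT females was lost in 4 of 8 fits without 1 library, those without ND-fed replicate 3 or 4 or CDAHFD-fed replicate 3 or 4 (log2 fold change 0.58 to 0.81, adjusted p = 0.0251 to 0.113).

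Pdgfrb (chromosome 18, 61045127 to 61085067, plus strand), the receptor best known from activated stellate cells and pericytes, had 5.74, 6.21, 7.98 and 10.01 CPM in ND-fed and 11.8, 13.1, 14.8 and 18.8 CPM in CDAHFD-fed WT females. For WT males the values were 5.51, 7.62, 8.35 and 8.67 and 13.8, 15.1, 16.9 and 17.8 CPM. Diets did not overlap in either sex. In Cyp2b-null females the ranges were 5.45 to 7.39 CPM on ND and 11.5 to 19.3 CPM on CDAHFD, and in Cyp2b-null males 3.26 to 8.29 and 16.1 to 20.8 CPM, again without overlap. The log2 fold changes were 0.92 (SE 0.22, adjusted p = 0.00338), 1.29 (SE 0.22, adjusted p = 0.000157), 1.09 (SE 0.22, adjusted p = 0.000643) and 1.61 (SE 0.22, adjusted p = 8.37e-06) in WT females, Cyp2b-null females, WT males and Cyp2b-null males. Of the 4 PDGF ligand genes, Pdgfa and Pdgfb were called higher in all 4 diet comparisons. Pdgfb, the ligand that both receptors bind, went from 0.768 ± 0.340 to 6.52 ± 2.53 CPM (SD, n = 4) in WT females, a log2 fold change of 2.91 (adjusted p = 4.36e-06), and from 1.46 ± 0.982 to 6.10 ± 3.18 CPM in WT males, 2.10 (adjusted p = 0.00130). Pdgfa changed by 2.13 in WT females (adjusted p = 9.44e-06). Pdgfd rose in WT males by 1.29 (adjusted p = 0.0240).

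Rgs5 (chromosome 1, 169655501 to 169695813, plus strand) encodes a regulator of G protein signaling that marks pericytes and stellate cells. In WT males it went from 18.6, 21.1, 23.1 and 25.3 CPM on ND to 18.1, 38.0, 43.1 and 44.6 CPM on CDAHFD, where 1 CDAHFD-fed library lay below all ND-fed libraries. In Cyp2b-null males it went from 16.5, 17.4, 18.8 and 21.3 CPM to 26.3, 28.8, 38.9 and 42.2 CPM, without overlap. Both rises were called, 0.71 (SE 0.21, adjusted p = 0.0143) and 0.88 (SE 0.22, adjusted p = 0.00280) as log2 fold changes. The WT male call was lost in 2 of 8 fits, those without CDAHFD-fed replicate 3 or 4 (adjusted p = 0.000126 to 0.0644 over the 8). Females overlapped, with 27.4, 35.5, 50.9 and 64.2 CPM on ND and 42.5, 46.6, 46.9 and 52.0 CPM on CDAHFD in WT mice, and 38.1, 53.8, 56.9 and 62.6 against 24.8, 48.8, 49.97 and 55.6 CPM in Cyp2b-null mice. Neither female change was called, 0.080 (SE 0.24, adjusted p = 0.851) in WT and −0.24 (SE 0.24, adjusted p = 0.470) in Cyp2b-null mice, and scaling by library size only turned the last to 0.033.

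Lrat (chromosome 3, 82892582 to 82903974, minus strand) encodes lecithin retinol acyltransferase, the enzyme that makes retinyl esters and the most used marker of the resting stellate cell. WT females had 15.1, 24.5, 38.5 and 39.3 CPM on ND and 26.3, 34.6, 38.2 and 50.1 CPM on CDAHFD. WT males had 13.4, 20.1, 25.1 and 29.1 CPM on ND and 17.1, 22.9, 28.3 and 32.6 CPM on CDAHFD. The diets overlapped widely in both. In Cyp2b-null mice the ranges overlapped too, 23.3 to 35.0 CPM on ND and 23.7 to 37.8 CPM on CDAHFD in females, and 15.9 to 26.5 and 17.99 to 29.4 CPM in males. The log2 fold change of Lrat was 0.33 (SE 0.24, adjusted p = 0.355), 0.10 (SE 0.24, adjusted p = 0.773), 0.20 (SE 0.23, adjusted p = 0.553) and 0.16 (SE 0.23, adjusted p = 0.623) in WT females, Cyp2b-null females, WT males and Cyp2b-null males.

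Reln (chromosome 5, 21884454 to 22344705, minus strand) encodes reelin, a large secreted glycoprotein that stellate cells make in the liver. It had the most reads of the 10 on ND in WT females, 140 to 451 counts, but over the longest transcript. WT females had 54.4, 67.2, 73.7 and 77.8 CPM on ND and 58.3, 68.0, 73.0 and 97.5 CPM on CDAHFD. WT males had 45.7, 54.6, 59.8 and 65.7 and 54.8, 64.0, 71.6 and 91.5 CPM. The diets overlapped in both sexes. In Cyp2b-null males Reln rose from 44.8, 45.4, 51.5 and 54.1 CPM to 56.5, 65.1, 71.0 and 73.8 CPM, without overlap, by 0.44 (SE 0.15, adjusted p = 0.0243) on the log2 scale. That was the smallest called change of the 10 markers in the 4 diet comparisons, and it was lost in 4 of 8 fits without 1 library, those without ND-fed replicate 2 or 3 or CDAHFD-fed replicate 1 or 4 (adjusted p = 0.0156 to 0.0712). The other changes were 0.11 (SE 0.17, adjusted p = 0.677) in WT females, 0.23 (SE 0.17, adjusted p = 0.319) in Cyp2b-null females and 0.32 (SE 0.15, adjusted p = 0.105) in WT males. Without CDAHFD-fed replicate 3, the WT male change was called (log2 fold change 0.43).

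Lhx2 (chromosome 2, 38339271 to 38369737, plus strand) encodes a LIM homeobox transcription factor that holds stellate cells in the resting state. Only 9 to 51 counts per library fell on it. WT females had 4.06, 5.18, 5.35 and 7.38 CPM on ND and 2.73, 3.14, 3.34 and 4.70 CPM on CDAHFD, which overlapped, with a log2 fold change of −0.65 (SE 0.27, adjusted p = 0.0926). It was the sole marker with a log2 fold change below 0 in WT females, and it passed the threshold in 1 of 8 fits, that without CDAHFD-fed replicate 3 (log2 fold change −0.83, adjusted p = 0.0494). The log2 fold change of Lhx2 was 0.21 (SE 0.27, adjusted p = 0.590) in Cyp2b-null females, 0.21 (SE 0.35, adjusted p = 0.685) in WT males and 0.26 (SE 0.35, adjusted p = 0.590) in Cyp2b-null males, and the diets overlapped in each.

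**Figure D2:**
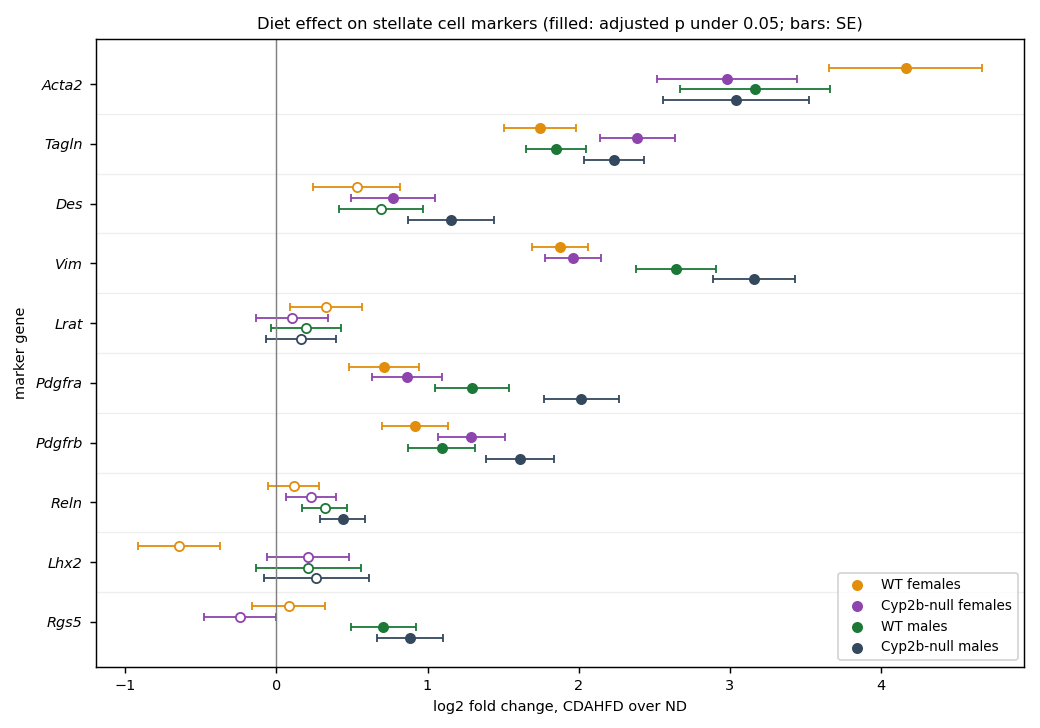
Log2 fold change of each marker, CDAHFD over ND (x axis), with its SE (bars), in the 4 diet comparisons, filled where the adjusted p was under 0.05. Acta2 reached 4.16 in WT females, Vim and Pdgfra were highest in Cyp2b-null males at 3.16 and 2.02, and Lrat stayed between 0.10 and 0.33 in all 4.

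Levels of different markers can be compared only per length, as CPM per kb of merged GENCODE vM21 exon. On that scale Rgs5 was highest on ND, 9.79 ± 3.60 in WT females and 4.85 ± 0.625 in WT males (SD, n = 4), followed by Lrat (5.49 ± 2.18) and Vim (4.91 ± 0.634) in WT females and by Vim (4.13 ± 1.76) and Lrat (4.10 ± 1.27) in WT males. On ND the libraries of Rgs5 overlapped those of Lrat in females and of Vim, Lrat and Tagln in males, and those of Lrat, Vim and Tagln overlapped one another, so that this order, the first place included, is within the spread. At the other end stood Acta2, which overlapped Pdgfra in males, with 0.156 ± 0.18 CPM per kb in WT females and 0.327 ± 0.247 in WT males. On CDAHFD the order in WT females was Vim (17.9 ± 3.02), Tagln (14.2 ± 1.28), Rgs5 (10.3 ± 0.858) and Lrat (6.97 ± 1.84), and in WT males Vim (25.4 ± 6.12) and Tagln (11.7 ± 1.74) again led. Vim and Tagln overlapped in females and not in males, and Rgs5 and Lrat overlapped in both. Acta2, Reln and Pdgfrb overlapped one another on CDAHFD in WT mice of both sexes, and Lhx2, which overlapped Pdgfra, was last in both, with 0.792 ± 0.194 CPM per kb in females and 0.878 ± 0.390 in males.

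Counts of 2 markers in the same library give a ratio that does not depend on how libraries are scaled, and here each ratio is compared only with itself across groups. There were 0.589 to 1.54 Vim counts for each Lrat count in ND-fed WT females and 1.71 to 3.66 in CDAHFD-fed WT females. In WT males the same ratio was 0.381 to 1.64 on ND and 3.84 to 5.45 on CDAHFD. Neither pair of ranges overlapped. Tagln counts for each Lrat count went from 0.173 to 0.458 to 0.563 to 1.12 in WT females, without overlap, and from 0.161 to 0.676 to 0.631 to 1.48 in WT males, where 1 ND-fed library reached into the CDAHFD range. Pdgfrb counts for each Lrat count overlapped in both sexes, with 0.149 to 0.410 on ND and 0.308 to 0.561 on CDAHFD in WT females and 0.189 to 0.649 and 0.422 to 0.989 in WT males. Pdgfra counts for each Lrat count overlapped in WT females, 0.184 to 0.615 and 0.287 to 0.451, and did not in WT males, 0.129 to 0.365 and 0.444 to 0.522. Lrat counts for each Reln count were 0.279 to 0.585 on ND and 0.452 to 0.562 on CDAHFD in WT females, and 0.224 to 0.638 and 0.250 to 0.516 in WT males, so that the diets overlapped. In Cyp2b-null mice the median Vim to Lrat ratio went from 0.851 to 2.65 in females and from 0.702 to 6.28 in males. There the diets did not overlap for Pdgfrb to Lrat, 0.204 to 0.234 on ND and 0.447 to 0.539 on CDAHFD in females. In Cyp2b-null males these were 0.205 to 0.324 and 0.709 to 1.05. Nor did they for Pdgfra to Lrat, 0.148 to 0.276 and 0.295 to 0.452 in Cyp2b-null females. In Cyp2b-null males these were 0.133 to 0.2 and 0.595 to 0.728. Tagln to Lrat did not overlap in Cyp2b-null mice of either sex, and Lrat to Reln did in both. No test was made of the ratios.

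**Figure D3:**
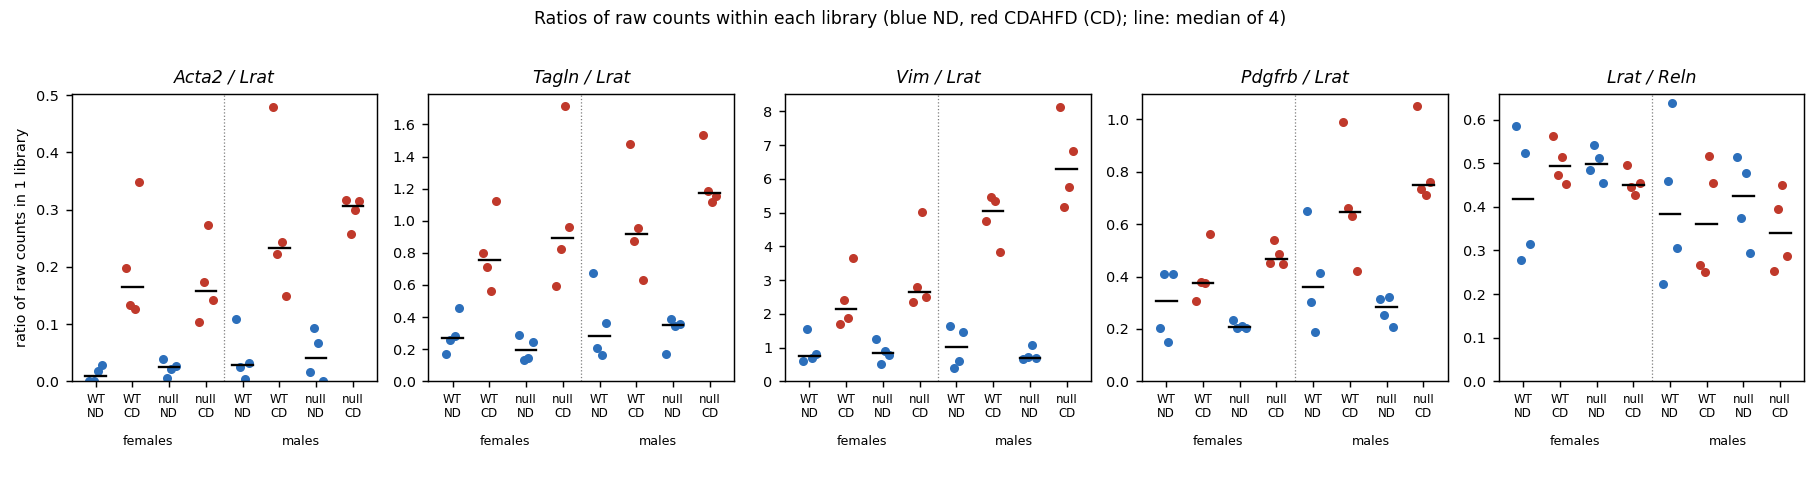
Ratio of raw counts of 2 markers within each library (y axis, each panel from 0) by group (x axis; null, Cyp2b-null; CD, CDAHFD), with the median of 4 libraries as a line. The ratios of Acta2, Tagln, Vim and Pdgfrb to Lrat have higher medians on CDAHFD in each sex and genotype, as with Vim to Lrat in Cyp2b-null males, and the ratio of Lrat to Reln overlaps between diets in WT mice.

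Other genes of the stellate cell were called in both directions, more of them higher than lower. From a list of 22 further stellate cell genes, 21 were tested, and 9 rose and 4 fell in WT females, 10 and 4 in Cyp2b-null females, 10 and 2 in WT males and 12 and 4 in Cyp2b-null males, with a median log2 fold change of 0.38, 0.48, 0.61 and 0.97. Over all genes, 13.9%, 16.9%, 18.0% and 20.3% were called higher and 10.2%, 13.9%, 15.0% and 17.1% lower in these comparisons. The falls in the list were under that share in WT males and near it in Cyp2b-null males. Gfap, used as a marker in rodents, had too few counts (at most 13). Adamtsl2, a matrix protein that restrains TGF-beta, rose from 2.62 ± 1.76 to 14.5 ± 3.58 CPM (SD, n = 4) in WT females, by 2.31 (adjusted p = 0.000159), and by 2.30 in WT males (adjusted p = 0.000388). Steap4, a metalloreductase, rose by 1.59 and 1.78 (adjusted p = 2.60e-06 and 1.00e-08). It had 69.4 to 365 CPM over the 32 libraries, while Lrat had at most 50.1 CPM. In whole liver the RNA of the genes in this list need not come from stellate cells, and their part was not tested. Hhip, the decoy receptor of Hedgehog ligands, fell from 3.79 ± 1.08 to 1.28 ± 0.571 CPM in WT females (−1.47, adjusted p = 0.00572) and from 2.52 ± 0.618 to 1.06 ± 0.283 CPM in WT males (−1.26, adjusted p = 0.0381). Ecm1, which keeps TGF-beta latent, fell in WT females by 1.0 on the log2 scale (adjusted p = 8.44e-05), and Vipr1 fell in WT males by 0.62 (adjusted p = 0.0106).

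Of 20 genes of fibrogenic output, collagens, crosslinking enzymes and matrix regulators, 17 rose in WT females, 16 in Cyp2b-null females (where Fn1 fell), 18 in WT males and 19 in Cyp2b-null males, with a median log2 fold change of 1.90, 1.3, 2.52 and 2.29. Timp1, the inhibitor of matrix metalloproteinases, had 3 counts over the 4 ND-fed and 118 over the 4 CDAHFD-fed libraries of WT females, a ratio of 32.5-fold (95% confidence interval for counting error 10.9 to 160.1), which rose (adjusted p = 5.89e-06). In WT males it had 3 and 115 counts, 36.9-fold (95% confidence interval for counting error 12.3 to 182) (adjusted p = 1.80e-06). Lox, which crosslinks collagen, rose from 4 to 69 summed counts in WT females, 14.3-fold (95% confidence interval for counting error 5.33 to 53.9) (adjusted p = 0.000644), and from 1 to 103 in WT males, 99.3-fold (95% confidence interval for counting error 17.4 to 3958) (adjusted p = 6.93e-07). The lowest called changes of this list were those of Mmp14, a membrane-bound matrix metalloproteinase (0.59 in WT females), Postn, periostin (1.23 in WT males), and Col5a1, a collagen V chain (1.13 and 1.60 in WT females and males). Among 14 contractile and actin-binding genes, 8 rose and 1 fell in WT females, 7 and 1 in Cyp2b-null females, and 8 and 1 in males of either genotype, with medians of 0.69, 0.59, 0.69 and 0.91. Tagln2 rose by 2.02 and 2.56 and Flna, filamin A, by 1.55 and 2.0 in WT females and males, and the gene that fell was Cnn3 (−0.48, adjusted p = 0.0265, and −0.30, adjusted p = 0.0300). Beside it the lowest called changes were those of Actn1, an alpha-actinin (0.66 in WT females), and Vcl, vinculin (0.29 in WT males). Leukocytes and hepatocytes express Tagln2, Flna and Cnn3 as well.

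Genes of retinoid storage and handling were called in both directions beside Lrat. In whole liver their RNA need not come from stellate cells, and the part of stellate cells in these changes was not tested. Over the 32 libraries Rbp4 had 2008 to 4268 CPM and Aldh1a1 627 to 2490 CPM, while Lrat had at most 50.1 CPM. Of 13 genes, 11 were tested in females and 10 in males, and 4 rose and 5 fell in WT females, 4 and 3 in Cyp2b-null females, 4 and 4 in WT males, and 2 and 3 in Cyp2b-null males, with medians of −0.24, −0.14, −0.15 and −0.24. In Cyp2b-null males that is near the share of all genes, 20.3% called higher and 17.1% lower. Lpl, lipoprotein lipase, which macrophages also make, rose most in WT females and males, by 3.28 and 3.92 (adjusted p = 3.10e-10 and 2.05e-09). Cyp26b1, an enzyme that breaks down retinoic acid, fell from 12.8 ± 12.4 to 3.53 ± 1.81 CPM in WT females (−1.89, adjusted p = 0.0409) and from 20.9 ± 13.3 to 4.71 ± 1.92 CPM in WT males (−2.14, adjusted p = 0.00193), with overlap in both. Cyp26a1 fell in WT males (−1.83, adjusted p = 0.00741). Pnpla3, a lipase of retinyl esters and triglycerides, fell from 173 to 5 summed counts in WT females, a level lower by 41.8-fold (95% confidence interval for counting error 17.6 to 130.4) (adjusted p = 1.51e-05).

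**Figure D4:**
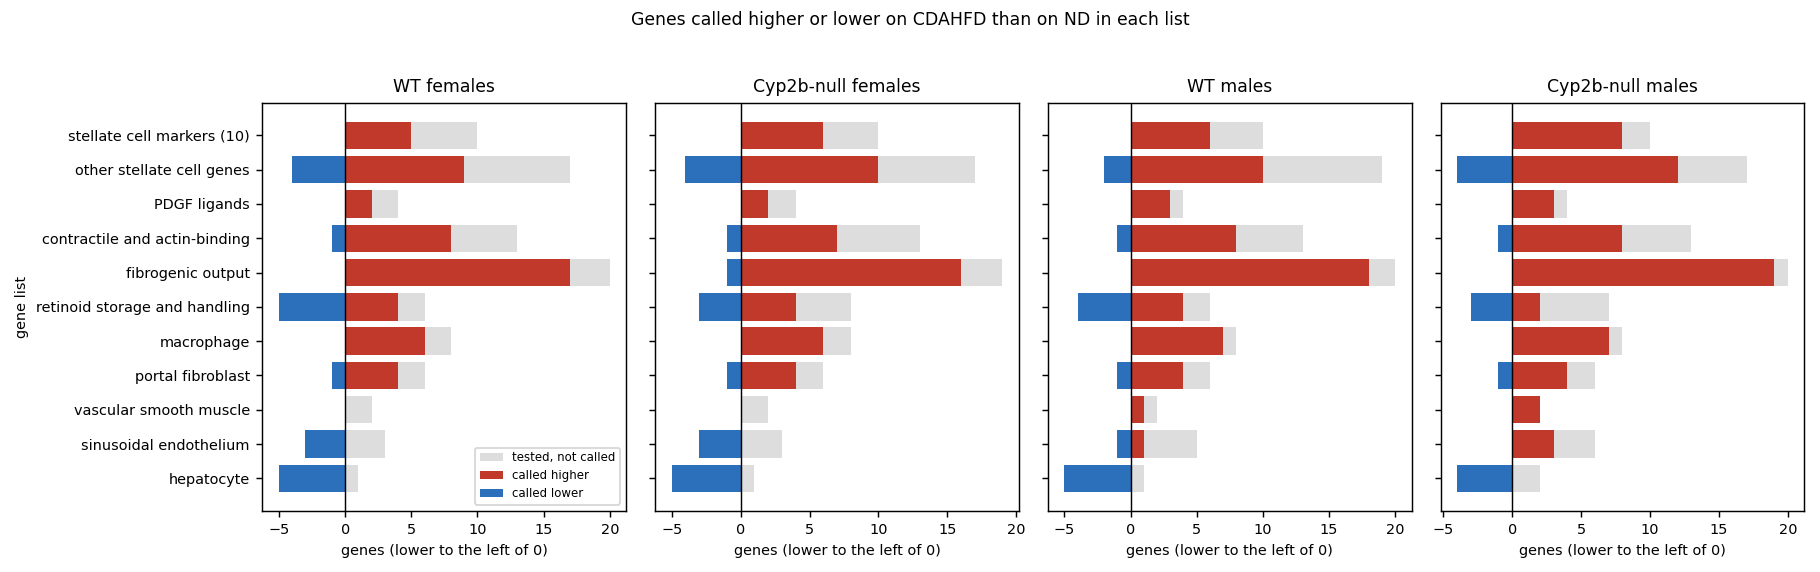
Number of genes called higher (right of 0) or lower (left of 0) on CDAHFD in each list (y axis) and diet comparison (panels), with tested genes that were not called in grey. Of the 10 stellate cell markers 5, 6, 6 and 8 were called higher, and of the 20 genes of fibrogenic output 17, 16, 18 and 19.

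Markers of other liver cells moved with diet at the same time. Of 8 macrophage genes, 6 rose in females of either genotype and 7 in males of either genotype, none fell, and their summed level went from 285 to 445 CPM on ND to 726 to 1170.1 CPM on CDAHFD in females and from 123 to 227 to 537 to 1268 CPM in males. Itgax rose by 5.01 and 5.15 and Ccr2 by 3.63 and 4.59 in WT females and males, Csf1r, the receptor of macrophage colony-stimulating factor, by 0.56 and 1.67, and Adgre1, an adhesion receptor of mature macrophages, by 0.82 and 1.90, while Clec4f, the marker of resident Kupffer cells, was called in none of the 4 comparisons. Macrophages express Vim, and their part in its rise was not tested. Of 7 portal fibroblast genes tested, 4 rose and 1, Gas1, fell in each of the 4 comparisons. Eln, elastin, rose by 2.81 in WT females (adjusted p = 2.92e-05) and 1.92 in WT males (adjusted p = 0.00425), Cd34 by 2.20 in WT males (adjusted p = 0.000440), Entpd2, an ectonucleotidase, by 1.17 in WT males (adjusted p = 0.00166), and Mfap4 from 5 to 50 summed counts in WT females, 8.27-fold (95% confidence interval for counting error 3.32 to 26.6) (adjusted p = 0.000409). The summed portal fibroblast level overlapped between diets, 30.7 to 49.5 against 44.5 to 67.4 CPM in females and 31.3 to 52.0 against 32.2 to 62.0 CPM in males. Portal fibroblasts can express Acta2, Vim and both PDGF receptors, and their part in these rises was not tested.

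Cholangiocyte genes rose in part, 2 of 5 in WT mice of each sex, 3 in Cyp2b-null females and 2 in Cyp2b-null males, and Spp1, also made by macrophages, was among them (1.95 in WT females and 2.97 in WT males). The other called gene was Sox9, a transcription factor of the ducts, in WT females (1.58) and Epcam, an adhesion molecule, in WT males (2.08). Of 5 mesothelial genes only Krt8, which hepatocytes express as well, was called (1.78 and 1.38 in WT females and males). The defining marker Wt1 was untested in both sexes, with at most 13 counts, and Msln in females. Of 6 sinusoidal endothelial genes, 3 fell in females of either genotype, while 1 rose and 1 fell in WT males and 3 rose in Cyp2b-null males. The WT male counts are near the share of all genes, 18.0% called higher and 15.0% lower. Kdr fell by 1.02 in WT females and by 0.83 in WT males on the log2 scale, and Lyve1 rose by 0.78 in WT males. Oit3 and the lectin Clec4g changed by −0.80 and −0.57 in WT females. Of 6 lymphocyte genes 2 were tested in females and 0 in males, with Nkg7 called higher in Cyp2b-null females (1.68). Hepatocyte genes went down, 5 of 6 in WT females, Cyp2b-null females and WT males and 4 of 6 in Cyp2b-null males. Their summed level was 129909 to 195428 CPM on ND and 75122 to 116135 CPM on CDAHFD in females, and 104813 to 128370.0 and 53241 to 100601 CPM in males. Serpina1c fell by 1.37 and 1.54 on the log2 scale in WT females and males, and Pck1, an enzyme of gluconeogenesis, by 1.31 in WT females. The other called changes named by the same rule were those of Alb (−0.77 and −0.65), Ttr (−0.83 and −0.75) and, in males, Apoa1 (−0.63). CPM are shares of a library, and the part of the lower hepatocyte share in the marker changes was not tested.

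Loss of Cyp2b was then compared with WT on the same diet. Of the 10 markers, 0 were called in any of the 4 genotype comparisons, 0 had an unadjusted p under 0.05 (5.74% and 5.84% of genes had one in females on ND and CDAHFD, and 8.25% and 3.62% in males), and DESeq2 called 0 as well. Over all genes the share called was 0.0756% on ND and 0.0227% on CDAHFD in females, and 0.0371% on ND and 0.0297% on CDAHFD in males. Log2 fold changes of the markers, Cyp2b-null over WT, ran from −0.50 to 0.80 on ND and −0.38 to 0.35 on CDAHFD in females, and from −0.39 to 0.23 on ND and −0.15 to 0.33 on CDAHFD in males. For each marker the libraries of the 2 genotypes overlapped in all 4 comparisons, where 3.64% and 2.83% of genes did not overlap in females, and 3.88% and 2.56% in males. The medians over the markers were −0.049, 0.059, −0.23 and 0.087.

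Acta2 had 6.91 ± 1.93 CPM in CDAHFD-fed WT and 5.32 ± 1.24 CPM in CDAHFD-fed Cyp2b-null females (SD, n = 4), a log2 fold change of −0.38 (SE 0.31, adjusted p = 0.832). In CDAHFD-fed males it had 6.27 ± 1.57 and 6.71 ± 1.45 CPM, 0.10 (SE 0.37, adjusted p = 0.9999). The libraries of the genotypes overlapped in both sexes. Vim had 84.9 ± 14.3 and 97.6 ± 16.1 CPM in CDAHFD-fed WT and Cyp2b-null females, 0.20 (SE 0.17, adjusted p = 0.836), and 121 ± 29.0 and 144 ± 21.8 CPM in males, 0.25 (SE 0.24, adjusted p = 0.9999). For Pdgfra in CDAHFD-fed males the values were 12.0 ± 2.56 and 15.1 ± 1.81 CPM, 0.33 (SE 0.22, adjusted p = 0.9999). Lrat differed by −0.19 (SE 0.23, adjusted p = 0.876) in CDAHFD-fed females and −0.15 (SE 0.23, adjusted p = 0.9999) in CDAHFD-fed males. On ND, Lhx2 was the marker with the lowest p in females, 5.49 ± 1.38 CPM in WT and 3.72 ± 0.970 CPM in Cyp2b-null mice, −0.50 (SE 0.27, adjusted p = 0.889).

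**Figure D5:**
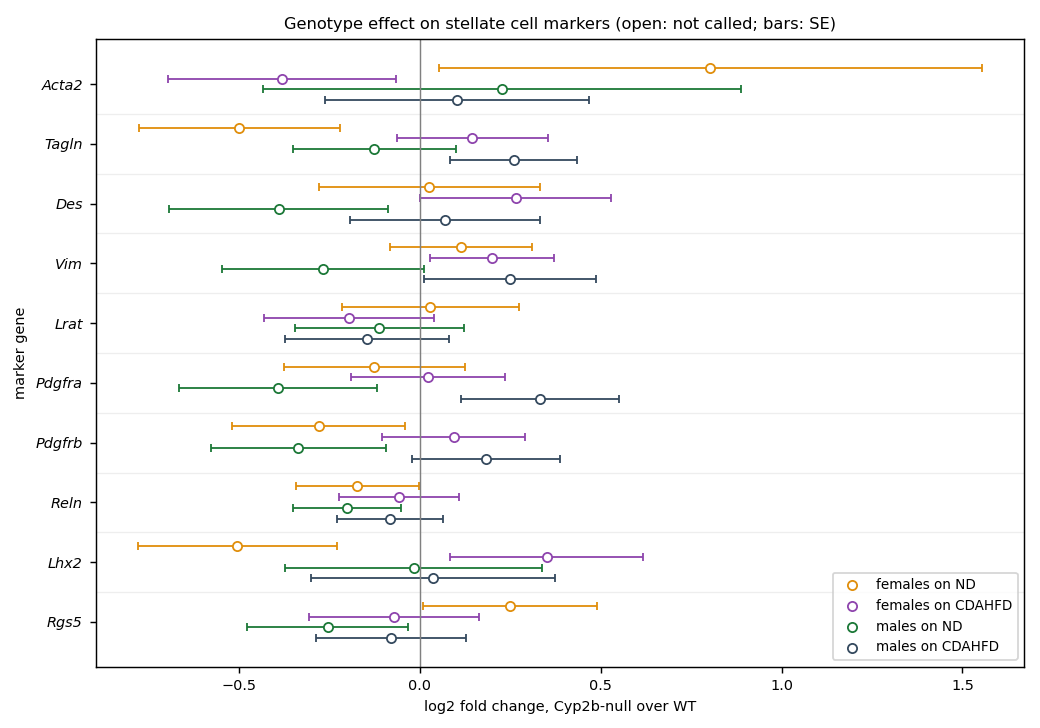
Log2 fold change of each marker, Cyp2b-null over WT (x axis), with its SE (bars), on each diet in each sex, all open since none was called. Values lie between −0.50 and 0.80, and the widest bars are those of Acta2 on ND, where it had 0 to 8 counts per library.

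Whether diet acted differently in the 2 genotypes was tested as the difference between the diet effects. In females 0 of 10 markers were called, with 0% of all genes called, and the differences ran from −1.18 to 0.85. Lhx2 alone had an unadjusted p under 0.05, as 6.28% of genes had. Its difference was 0.85 (SE 0.38, adjusted p = 0.759), and it was lower on CDAHFD in WT and higher in Cyp2b-null females by means. In males 0 of 10 were called (0.00743% of genes), 0 had an unadjusted p under 0.05 (6.07% of genes), and the differences ran from −0.12 to 0.72. DESeq2 called 0 markers in both.

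The diet effect was also compared between the sexes, in 1 fit to all 32 libraries. In WT mice 0 of 10 markers were called, where 0.970% of 14020 genes were, and DESeq2 called 0. Vim had the lowest p, with a difference of 0.79 (SE 0.34, adjusted p = 0.386), males over females, and was the sole marker with an unadjusted p under 0.05, as 10.3% of genes had. In Cyp2b-null mice 2 markers were called, both with the larger rise in males, where 2.09% of genes were called in that direction. The difference was 1.22 (SE 0.34, adjusted p = 0.0394) for Vim and 1.18 (SE 0.34, adjusted p = 0.0459) for Pdgfra. Rgs5 had 1.15 (SE 0.34, adjusted p = 0.0514) and was not called. It passed under DESeq2, without the filter on low counts and in the fit of only the groups compared.

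Leaving out 1 library often removed these calls. Among the 16 fits without 1 Cyp2b-null library, Vim was called in 5 (log2 difference 1.08 to 1.44, adjusted p = 0.0194 to 0.0939), those without ND-fed female replicate 2, CDAHFD-fed female replicate 3, ND-fed male replicate 1 or 3, or CDAHFD-fed male replicate 2. Pdgfra was called in 5 (1.03 to 1.46, adjusted p = 0.0185 to 0.128), those without ND-fed female replicate 2, CDAHFD-fed female replicate 2 or 4, ND-fed male replicate 1 or CDAHFD-fed male replicate 1. Rgs5 was called in 5 (0.95 to 1.27, adjusted p = 0.0416 to 0.134), those without ND-fed female replicate 1, CDAHFD-fed female replicate 1 or 4, or CDAHFD-fed male replicate 1 or 2. Among 6 other settings, Vim was called in 6 and Pdgfra and Rgs5 in 3 each. In Cyp2b-null males Pdgfra lay between 2.23 and 5.13 CPM on ND and between 13.1 and 17.5 CPM on CDAHFD. In Cyp2b-null females these ranges were 4.79 to 8.41 and 8.81 to 16.2 CPM. Macrophage markers moved in the same direction, with 5 of 8 called higher in males in that comparison, and their part in the difference of Vim was not tested. The sexes were counted in separate tables. CPM were scaled within each table, while the fit of the sex differences scaled all libraries together. Sex and table cannot be told apart, so no level was tested between sexes.

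Genes most like each marker were sought over the 32 libraries after the mean of each group was taken off, among 13458 genes, as a description only. Values of a gene pair come from the same libraries and share their depth. Acta2 and Tagln were among the 3 most alike of each other (r = 0.71), and by Spearman's rho each was first for the other (rho = 0.81). They were the sole pair of markers among these lists. The nearest gene to Lrat was Cyp26b1 (r = 0.79), to Vim Olfml3 (r = 0.79) and to Reln Mpdz (r = 0.76). Pdgfra was closest to the cholangiocyte keratins Krt19 (r = 0.73) and Krt7 (r = 0.68), and Pdgfrb to Add1 (r = 0.72). Rgs5 was nearest to Prex1 (r = 0.77), Lhx2 to Pianp (r = 0.76), which was also second for Rgs5 (r = 0.75), Des to Hid1 (r = 0.73), Acta2 to Pold3 (r = 0.72) and Tagln to Tecr (r = 0.72). For 8 of the 10 markers the nearest gene by r stayed among the 3 nearest by rho.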

How the data were processed

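Total RNA from liver (RNA integrity number over 8) was made into NEB Next Ultra libraries and sequenced with 150-base reads from both ends. Per the labels and the study's methods, the authors checked reads with FastQC, trimmed them with Trimmomatic, aligned them to GRCm38.p6 with GSNAP, counted with featureCounts of Subread, and deposited raw counts per gene in one table per sex. Versions, strand and multi-mapping settings are not given in the sources used here. The deposited counts were used unchanged. Some gene symbols (27) had the form of dates and 2 stood in several rows, none of them a marker.

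Counts were fitted per table with edgeR 4.0.16 (quasi-likelihood test, TMM factors, filterByExpr with a count minimum of 10 and a total of 15, R 4.3.3, limma 3.58.1), with 4 libraries in each of 4 groups. Sex differences came from 1 fit to 32 libraries. p-values were adjusted by Benjamini-Hochberg over all genes tested, with calls under 0.05. DESeq2 1.42.0 was an alternative. CPM used TMM-scaled library sizes. On simulated data for WT females and males, 82.0% and 81.7% of 194 and 197 genes changed by 2-fold or 4-fold were called. All 32 libraries were used.

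Markers and lists were chosen with earlier results of these data known. All 10 markers were described. Of each list, the 2 highest and 2 lowest log2 fold changes among called genes averaging at least 1 CPM, in WT mice of each sex, were named, except for 1 gene that is not reported here. Aldh1a1, Clec4f, Cnn1, Fn1, Gfap, Myh11, Myocd, Nkg7, Rbp4 and Wt1, outside that rule, were chosen after their values were seen. Likeness used log2 CPM with a prior count of 2. Exons came from GENCODE vM21, and positions and promoters from RefSeq, where 8 of the 10 markers matched.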

Additional observations from a re-analysis of the deposited data

Results flagged for a closer look

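Des in ND-fed Cyp2b-null males had 1 library, replicate 1, far above the others, at 5.34 CPM (49 counts), while the other 3 lay between 2.68 and 3.10 CPM. Its gap to the next library was 0.842 of the group's range, past Dixon's limit for 4 libraries. It was the sole such case among 80 sets of 4 libraries, which is fewer than the share of about 1 in 20 that chance alone gives. Des rose on CDAHFD in these males in each fit without 1 library.

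The rise on CDAHFD differed between the sexes in Cyp2b-null mice for 2 markers, tested as a difference of the diet effects in 1 edgeR quasi-likelihood fit to 32 libraries. The log2 difference, males over females, was 1.22 for Vim (adjusted p = 0.0394) and 1.18 for Pdgfra (adjusted p = 0.0459). Each was called in 5 of 16 fits without 1 library. In WT mice the same difference was 0.79 for Vim and not called (adjusted p = 0.386).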

How the results depend on the processing

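Other settings were tried, DESeq2, RLE factors, library size only, no filter on low counts, the replicate number as a block, and a fit to only the groups compared. The number of markers called stayed within 1.5 times the value given for every diet and genotype comparison and for both differences between genotypes. For the sex difference in Cyp2b-null mice it was 2, and it was 1 with library size only and 1 with the replicate block. Without 1 library it ran from 0 to 2, and the cause was not tested. In the fit to only the groups compared, the calls of Des in Cyp2b-null females (adjusted p = 0.0799) and of the sex difference of Pdgfra (adjusted p = 0.0648) were lost. Scaling by library size only turned the sign of 3 uncalled changes, to 0.033 for Rgs5 (diet effect, Cyp2b-null females), −0.020 for Pdgfra (genotype effect, CDAHFD-fed females) and 0.024 for Lhx2 (genotype effect, ND-fed males). It also added calls for Des and Reln among the diet effects, with the median of all genes shifted as given above.

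The replicate numbers gave no clear sign of pairing the libraries, though a shared cage, day or batch was not tested. Of 48 pairs of libraries with the same number, 5 had deviations from their group means correlated at over 0.1 (range −0.19 to 0.29), and 13 correlated best with their own number. Each CDAHFD-fed WT female library did so against the ND-fed Cyp2b-null females, at r = 0.046 to 0.069. The block moved the number of all genes called in WT females from 3193 to 3099 and in WT males from 4443 to 4373, turned the genotype effect of Lhx2 in ND-fed males to 0.0023, and took the sex difference of Pdgfra in Cyp2b-null mice to an adjusted p of 0.0639.

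Some uncalled changes turned sign in at least 1 fit without 1 library. The ranges of these log2 fold changes were, for the diet effect, −0.049 to 0.22 for Reln and −0.11 to 0.33 for Rgs5 in WT females, −0.00096 to 0.23 for Lrat in Cyp2b-null females and −0.094 to 0.46 for Lhx2 in WT males. For the genotype effect they were −0.14 to 0.23 for Des, −0.0032 to 0.28 for Vim, −0.16 to 0.22 for Lrat and −0.28 to 0.029 for Pdgfra in ND-fed females, and −0.0034 to 0.26 for Tagln, −0.022 to 0.48 for Des, −0.14 to 0.16 for Pdgfra, −0.026 to 0.24 for Pdgfrb, −0.16 to 0.10 for Reln and −0.18 to 0.13 for Rgs5 in CDAHFD-fed females. In males they were −0.19 to 0.83 for Acta2, −0.27 to 0.074 for Tagln, −0.29 to 0.063 for Lrat and −0.21 to 0.23 for Lhx2 on ND, and −0.069 to 0.25 for Acta2, −0.034 to 0.37 for Des, −0.19 to 0.067 for Reln, −0.20 to 0.34 for Lhx2 and −0.30 to 0.046 for Rgs5 on CDAHFD.

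With 4 libraries a group, 68.4% of simulated 2-fold changes were called in WT females and 68.0% in WT males, over 12952 and 13109 genes. In these simulations 194 and 197 genes drawn at random were changed, by 2-fold or 4-fold, where 3193 and 4443 genes were called in the data. These shares are therefore no measure of the power for the markers. Low counts limit several markers, with 0 to 8 counts per library for Acta2 on ND, 9 to 51 for Lhx2, and as few as 10 for Tagln and Pdgfra and 12 for Des on ND. Genotype comparisons without the filter on low counts called 122 and 69 genes in females and 170 and 51 in males, against 10, 3, 5 and 4, none of them a marker.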
